A study of Arabidopsis thaliana with 6 samples.

Results

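Polygalacturonases and related glycoside hydrolases of family 28 were followed in Arabidopsis thaliana seedlings that received an auxin with or without an inhibitor of brassinosteroid synthesis. The family was taken as a list of 57 loci, and a member counted when the platform annotation tied a probe set to that locus alone. This held for 41 loci, each with 1 probe set, out of 13333 genes so named and 22810 probe sets on the array. Of the remaining 16 loci, 9 lay in 4 probe sets shared by several genes and 7 were not named by any probe set in the annotation used. Those 16, among them QRT2, ADPG2 (PGAZAT in RefSeq) and PGX1 (AT3G26610), were not analysed here.

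Pectin is the acidic, galacturonic acid-rich polysaccharide of the plant primary wall and of the middle lamella that glues neighbouring cells together. Polygalacturonases hydrolyse the homogalacturonan backbone of pectin, mostly after pectin methylesterases have removed its methyl groups, while pectate lyases cut the same backbone by elimination. In Arabidopsis the family is large and is known for cell separation (pollen release, pod opening, organ shedding, the passage of lateral roots through overlying layers) as well as for wall remodelling during expansion, and many of its genes are used mainly in flowers and pollen.

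Both groups consisted of Columbia seedlings without a mutation or transgene named in the labels, raised for 10 d on agar medium with 16 h of light and 8 h of darkness and then moved to liquid medium for 8 h. The control group (3 arrays) received 1e-07 M 2,4-D, a synthetic auxin. The other group (3 arrays) received the same dose of 2,4-D together with 1e-06 M brassinazole, which blocks brassinosteroid synthesis. The control therefore carried auxin too, and neither the response to 2,4-D nor to brassinazole alone could be measured. The labels describe 3 seedlings per RNA batch and a pooling step, and do not settle whether each array had its own pool, so that the spread between arrays may be partly technical. RNA came from whole seedlings, so fewer cells of a type and less RNA per cell cannot be told apart.

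Values are MAS5 signals, linear intensities that the submitters had scaled to a common level per array. Median signals were 188 to 195 per array. The 25S rRNA control read 981 on 2,4-D array 1 and 174 to 215 on the others, and the 5' bioB spike-in read 338 on brassinazole array 3 and 156 to 204 elsewhere, so results are also given without both arrays. The ratio of 3' to 5' signal was 12.3 to 17.3 with 2,4-D and 18.8 to 21.1 with brassinazole for the actin control, 3.14 to 3.54 and 2.59 to 3.00 for the ubiquitin control, and 2.31 to 2.52 and 2.21 to 2.43 for the second actin set. The part of these differences in the results below was not tested. As a check of the tissue, the leaf transcript RCA (1 of 7 leaf markers named) read 24531 to 25764 with 2,4-D and 22954 to 29053 with brassinazole. The summed root markers PYK10, EXPA7 and EXPA18 (3 of 4 named) read 14027 to 17862 and 14841 to 17710, a sum that is almost all PYK10. The root hair expansins EXPA7 and EXPA18 were each lower on all 3 brassinazole arrays than on any control array, at 205 ± 27.2 and 154 ± 7.65 for EXPA7 and 264 ± 51.9 and 188 ± 22.2 for EXPA18 (SD, n = 3 each). Their log2 changes of -0.37 and -0.44 missed the threshold (limma adjusted p = 0.0916 and 0.0806; unadjusted p = 0.0103 and 0.00816). Among all probe sets tested, 14.3% were lower on all 3 brassinazole arrays, and 21.9% had an unadjusted p under 0.05 in either direction. Both expansins lay in the same direction as most called members below, and their part in those results was not tested. No marker of root cap, pollen or stored seed protein was named by a single-gene probe set.

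Polygalacturonase-like transcripts that differed were mostly lower when brassinosteroid synthesis was inhibited. A probe set was tested when its mean log2(signal + 16) over the 6 arrays reached the 25th percentile of the table, which corresponds to a signal of 34.2. Fold differences below are those of signal + 16, as fitted. They can be smaller than the ratio of the mean signals, clearly so for members of low signal. Of the 41 members, 23 were tested and 18 were dim. Among the 23, 7 fell, 1 rose and 15 did not pass limma's moderated test at a Benjamini-Hochberg adjusted p of 0.05 over 17059 probe sets. The called share was 34.8% of the tested members against 7.52% of all probe sets tested. For the fall alone it was 30.4% against 4.08%, and for the rise 4.35% against 3.44%. The median log2 change of the tested members was -0.17, against -0.01 for all probe sets tested, and 69.6% of members had a negative change, against 52.7%. The members share the same arrays and were chosen with earlier results of these data known. These shares therefore describe the family and were not tested against other genes. Without both arrays whose controls stood apart, 5 members were called lower and AT1G65570, the member that rose, no longer passed. In that fit 458 of all 17059 probe sets were called lower, and 4.76% were called in either direction.

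**Figure D1:**
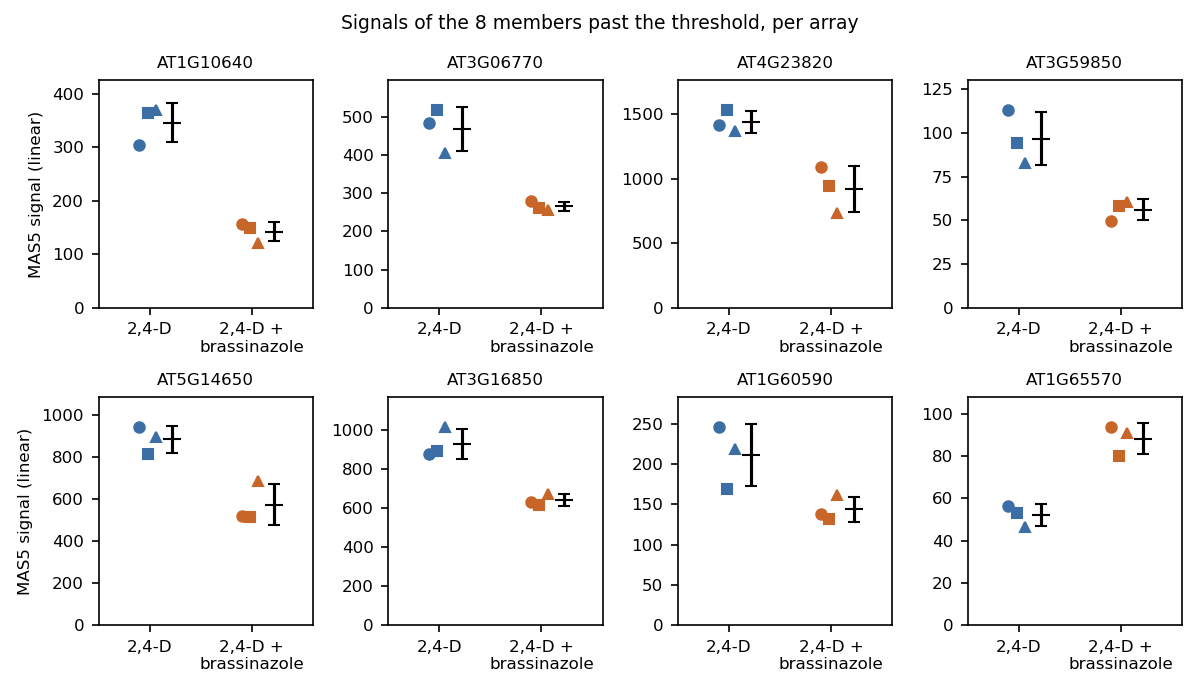
Linear MAS5 signal (vertical axes, each starting at 0) on the 6 arrays for the 8 members that passed the test, with circles, squares and triangles for replicates 1, 2 and 3, and the mean with its SD (n = 3) in black. In 7 members all 3 brassinazole arrays lay below the 3 arrays with 2,4-D alone, and in AT1G65570 all 3 lay above them.

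AT1G10640, a polygalacturonase-like glycoside hydrolase, was the 1 member that fell by at least 2-fold. Its signal was 304, 363 and 370.3 on the arrays with 2,4-D alone and 157, 149 and 122 on those with brassinazole. Every brassinazole array lay well below every control array. The mean fell from 346 ± 36.5 to 143 ± 18.4 (SD, n = 3 each). On the log2(signal + 16) scale the fall was 2.29-fold (log2 change -1.19 ± 0.125, SE; limma adjusted p = 5.39e-05). A change of at least 2-fold past the threshold was found in 0.645% of all probe sets tested. The call held with any single array left out, with log2 changes between -1.28 and -1.09.

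AT3G06770 was the next largest fall. With 2,4-D alone its signal was 483, 519 and 406, and with brassinazole 279.6, 262 and 257. The control arrays scattered more than the brassinazole arrays, which lay close together, and the groups did not overlap. The means were 469 ± 57.5 and 266 ± 11.99 (SD, n = 3 each), a 1.71-fold difference on the log2(signal + 16) scale (log2 change -0.78 ± 0.108, SE; limma adjusted p = 0.000522).

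AT4G23820 belongs to the same family 28. It read 1419, 1535 and 1369 with 2,4-D alone and 1090.2, 941 and 736 with brassinazole. Brassinazole array 3, one of the arrays with deviating controls, was the lowest of them. The mean fell from 1441 ± 85.1 to 922 ± 178 (SD, n = 3 each), 1.57-fold on the log2(signal + 16) scale (log2 change -0.65 ± 0.119, SE; limma adjusted p = 0.00375). Without brassinazole array 3 the log2 change was -0.50 (adjusted p = 0.00572), so the call did not rest on that array.

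AT5G14650 has been described as PGLR, an endo-polygalacturonase of roots and of the tissue around emerging lateral roots. That name and RCPG, PGX2 and PGX3 below come from the literature, and the RefSeq gene table used here does not carry them. Its signal was 944, 816 and 895 with 2,4-D alone and 519, 517 and 686 with brassinazole. Here brassinazole array 3 was the highest of its group, and still lay below every control array. The mean fell from 885 ± 64.6 to 574 ± 97.2 (SD, n = 3 each), 1.54-fold on the log2(signal + 16) scale (log2 change -0.62 ± 0.112, SE; limma adjusted p = 0.00348). Without brassinazole array 3 the log2 change was -0.75 (adjusted p = 0.000393).

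AT3G16850 fell by a smaller and even step. The signal was 878, 895 and 1017 with 2,4-D alone and 629.7, 618 and 675 with brassinazole. The groups did not overlap, and the brassinazole arrays scattered less than the control arrays. The mean fell from 930.2 ± 75.8 to 641 ± 30.4 (SD, n = 3 each), 1.44-fold on the log2(signal + 16) scale (log2 change -0.52 ± 0.0897, SE; limma adjusted p = 0.00234). These 5 members, AT1G10640, AT3G06770, AT4G23820, AT5G14650 and AT3G16850, passed in each of the 15 alternative settings tried, including every fit with 1 array left out.

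The falls of AT3G59850 and AT1G60590 were less secure. AT3G59850 read 113, 94.1 and 83.0 with 2,4-D alone and 49.5, 58.3 and 60.6 with brassinazole. Its groups did not overlap, with means of 96.9 ± 15.4 and 56.1 ± 5.87 (SD, n = 3 each; log2 change -0.64 ± 0.169, SE; limma adjusted p = 0.0337). The call was lost without 2,4-D array 1 (adjusted p = 0.146), 2,4-D array 2 (0.0888), brassinazole array 1 (0.0992) or brassinazole array 2 (0.071), without both arrays with deviating controls (0.146), with the replicate number as a block (0.0577) and with no filter (0.0779). AT1G60590 read 246, 169 and 219 with 2,4-D alone and 139, 132 and 161 with brassinazole. The lowest control array and the highest brassinazole array were close. Its means were 211 ± 38.9 and 144 ± 15.4 (SD, n = 3 each; log2 change -0.50 ± 0.142, SE), and its limma adjusted p of 0.0486 was just under the threshold. That call was lost with arrays centred on their median (adjusted p = 0.0575) or quantile-normalized (0.0633), without 2,4-D array 1 (0.198), 2,4-D array 3 (0.148), brassinazole array 1 (0.112) or brassinazole array 2 (0.148), without both arrays with deviating controls (0.137), without the variance trend (0.0899) and with no filter (0.126).

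The member that rose was AT1G65570, described in Arabidopsis as the root cap polygalacturonase RCPG, which takes part in the shedding of outer root cap cells. Its signal was 56.6, 53.2 and 46.7 with 2,4-D alone and 93.9, 80.1 and 91.2 with brassinazole. All brassinazole arrays were above all control arrays, on a probe set that was not far over the filter on low values. The mean rose from 52.2 ± 5.03 to 88.4 ± 7.32 (SD, n = 3 each). On the log2(signal + 16) scale the rise was 1.53-fold (log2 change 0.62 ± 0.165, SE, with limma adjusted p = 0.0365). The change stayed positive, between 0.56 and 0.67, with any single array left out, but the adjusted p was then 0.0652 to 0.112, so the call needed all 6 arrays. It was also lost without both arrays with deviating controls (0.117), with the replicate number as a block (0.0566) and with no filter (0.0704). The root cap markers fixed for comparison, AT1G79580, AT1G33280 and AT4G10350, had no single-gene probe set, so no level of theirs stands beside this rise.

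**Figure D2:**
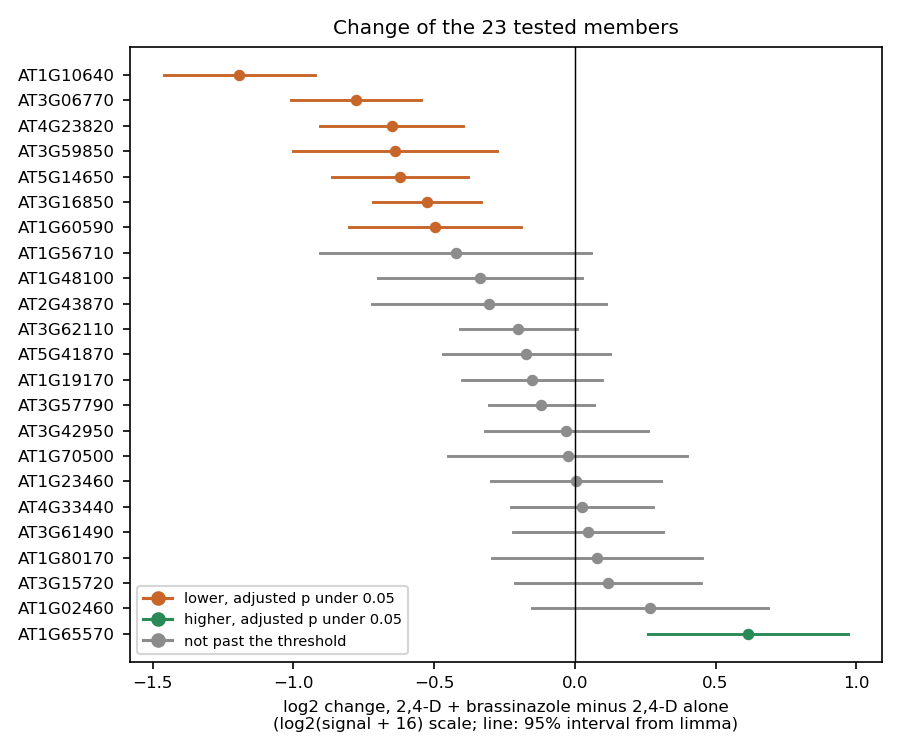
Log2 change of signal + 16 (horizontal axis, 2,4-D plus brassinazole minus 2,4-D alone) for each of the 23 tested members, with its 95% interval from limma. The 7 members in orange fell, by 0.50 to 1.19 on the log2 scale, AT1G65570 in green rose by 0.62, and the intervals of the 15 members in grey include 0.

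Of the 15 tested members that did not pass, AT3G62110 came nearest to the threshold. It read 522, 518 and 527 with 2,4-D alone and 477, 482 and 401 with brassinazole. The groups did not overlap, with means of 522 ± 4.57 and 454 ± 45.4 (SD, n = 3 each), but the difference did not pass (log2 change -0.20, 95% interval -0.41 to 0.0060; limma adjusted p = 0.243). Across the 23 tested members the groups did not overlap in 9, 8 of them lower and 1 higher with brassinazole. That is 39.1%, against 27.2% of all probe sets tested, 14.3% in the lower and 12.9% in the higher direction.

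AT1G48100, described as PGX3, a polygalacturonase of expanding tissue and guard cells, was at 127, 96.7 and 115 with 2,4-D alone and 65.7, 96.1 and 97.9 with brassinazole. Its groups overlapped by 1 array on each side, and the log2 change of -0.34 (95% interval -0.70 to 0.027) did not pass (limma adjusted p = 0.269). AT1G56710 read 76.2, 83.8 and 75.2 with 2,4-D alone and 35.6, 86.2 and 49.9 with brassinazole. The brassinazole arrays ran from below to above all control arrays, with a log2 change of -0.42 (95% interval -0.91 to 0.058; limma adjusted p = 0.297). AT2G43870 read 79.2, 76.6 and 66.1 with 2,4-D alone and 42.8, 54.8 and 76.2 with brassinazole, again with overlap (log2 change -0.30; limma adjusted p = 0.397).

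On the other side, AT1G02460 read 39.1, 49.9 and 66.7 with 2,4-D alone and 63.9, 71.1 and 59.4 with brassinazole, with overlapping groups (log2 change 0.27, 95% interval -0.15 to 0.69; limma adjusted p = 0.471). AT3G15720 (log2 change 0.12), AT1G80170 (0.08) and AT3G61490 (0.05) had overlapping groups and limma adjusted p of 0.725, 0.846 and 0.878. The log2 change of each of these 3 turned negative in at least 1 fit with an array left out, so none has a settled direction. AT3G57790, with one of the higher signals, read 723, 741 and 719 with 2,4-D alone and 644, 639 and 726 with brassinazole. That was a log2 change of -0.12 with a 95% interval of -0.31 to 0.068 (limma adjusted p = 0.472), so a fall as large as that of the members called lower lay outside its interval.

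The other 6 tested members, AT1G19170, AT5G41870, AT3G42950, AT4G33440, AT1G70500 and AT1G23460, had signals of 43.3 to 297 on single arrays. Their groups all overlapped, their log2 changes lay between -0.17 and 0.03, and their limma adjusted p between 0.495 and 0.993. The 95% intervals of these 6 changes reached from -0.47 to 0.40 at the widest, and a p that missed the threshold does not show that these 6 were unchanged. The probe set of AT1G23460 is of a kind that Affymetrix marks as matching more than one transcript, so its signal may be shared.

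**Figure D3:**
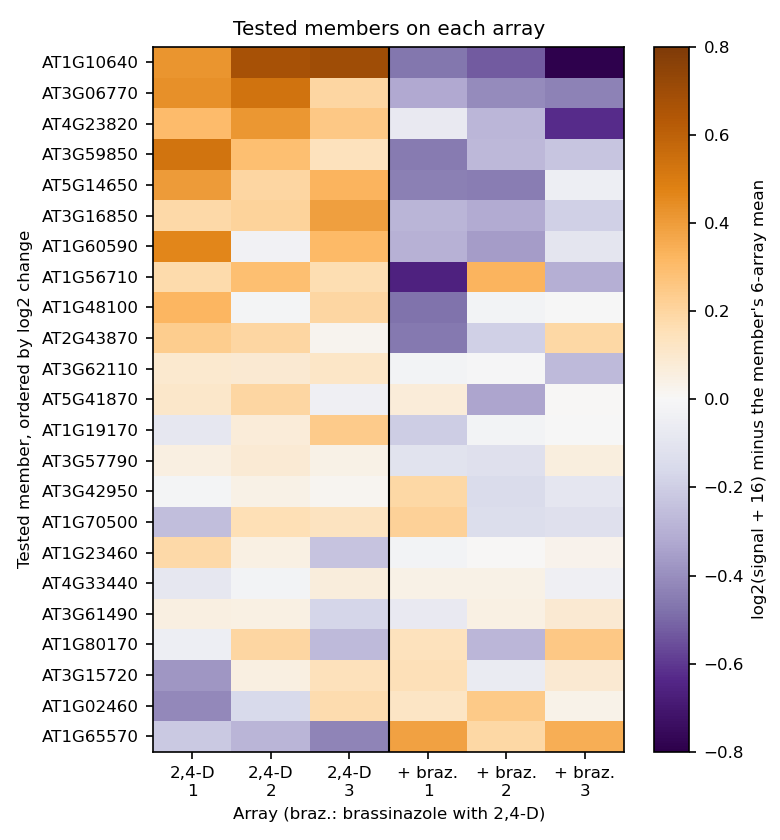
Each row is a tested member, ordered by its log2 change, and each column an array; colour gives log2(signal + 16) minus the mean of that member over the 6 arrays (orange above, purple below). The 7 members that fell are at the top and AT1G65570 is at the bottom, and no single brassinazole array was lowest in all 7.

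Among the 7 members that fell, the lowest signal of the brassinazole group was on array 1 in 1 member, on array 2 in 3 and on array 3 in 3. The median log2 difference of the 23 tested members from the control mean was -0.17, -0.18 and -0.11 on brassinazole arrays 1, 2 and 3. All 3 arrays thus lay on the same side, but they were set against 1 shared control mean. The members include the 7 that fell, and the same medians over all probe sets tested were not computed per array. The coefficient of variation of the signal within a group had a median of 9.64% over the tested members with 2,4-D alone (0.875% to 26.8%) and of 10.5% with brassinazole (1.96% to 45.6%). The highest was that of AT1G56710 with brassinazole.

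The 18 dim members had mean signals of 0.594 to 27.5, with a median of 10.2, and no array exceeded 37.6. Dim members made up 43.9% of the family, where the filter leaves out 25% of all probe sets by construction. They include ADPG1 (AT3G57510), a polygalacturonase of pod opening and organ shedding, at 16.2, 4.34 and 12.7 with 2,4-D alone and 8.44, 9.45 and 17.8 with brassinazole. They also include AT2G33160, described as NIMNA and known for elongation of the embryo's suspensor, at 5.67, 20.5 and 10.5 against 1.82, 13.1 and 36.1. AT1G78400, described as PGX2, a polygalacturonase of expanding stems, read 15.2, 22.1 and 2.94 against 27.3, 23.5 and 2.40. In each of these 3 the groups overlapped, and no change could be read at these signals.

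When all 22746 probe sets were tested without the filter, 3.9% of them passed with limma. The share of all of them with an unadjusted p under 0.05 was not computed for that fit. Of the 18 dim members, 0 passed and 1 had an unadjusted limma p under 0.05. That member, named after its values were seen, was AT2G23900, at 24.7, 16.4 and 10.9 with 2,4-D alone and 0.901, 3.38 and 3.59 with brassinazole (adjusted p = 0.0676). Its groups did not overlap, all brassinazole arrays being lower, which was also true of AT1G80140, AT2G26620 and AT4G13760. These 4 are 22.2% of the dim members. Among all probe sets under the filter the groups did not overlap in 11.4%, 6.33% in the lower and 5.06% in the higher direction, and a count of 4 at such signals is too small to be read as a result. No dim member had all brassinazole arrays above the control arrays. Detection calls were not used here, and a dim signal does not show that a transcript was absent.

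**Figure D4:**
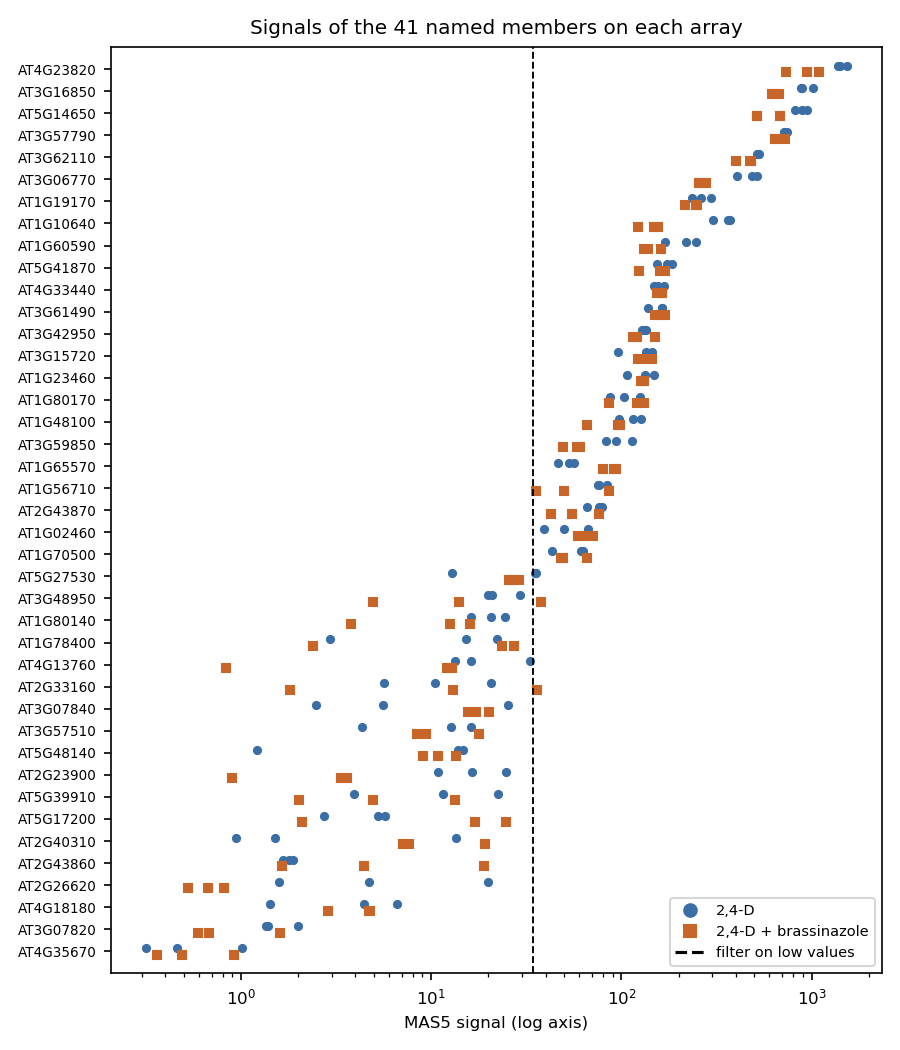
MAS5 signal (log axis) of the 41 members on each array, with 2,4-D alone as blue circles and 2,4-D plus brassinazole as orange squares; the dashed line is the filter on low values at a signal of 34.2. The 18 dim members, whose means lie left of the line, scatter more widely on this axis than the tested ones, and signals of different probe sets are not levels that can be ranked.

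Other genes that act on pectin were read in the same fit. Of 67 loci listed as pectin methylesterases, which prepare homogalacturonan for polygalacturonases, 21 were tested, of which 3 fell and the other 18 did not pass (median log2 change -0.12). The falls were those of ATPMEPCRD (AT2G43050), from 469 ± 24.6 to 177 ± 29.5, AT3G49220, from 2588 ± 265 to 1768 ± 102, and AT5G04960, from 282 ± 45.4 to 156 ± 24.5 (SD, n = 3 each; limma adjusted p = 1.47e-05, 0.00196 and 0.00304). Of 26 loci listed as pectate lyase-like, 14 were tested and 8 fell (median log2 change -0.45). AT1G67750 was at 2393 ± 53.0 and 1006 ± 35.0, AT3G07010 at 956 ± 67.5 and 436 ± 46.7, and AT5G48900 at 1419 ± 78.9 and 836 ± 60.7 (SD, n = 3 each; limma adjusted p = 4.34e-07, 1.44e-05 and 0.000119).

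Of 12 pectin acetylesterase loci, 5 were tested, and AT1G57590 rose from 163 ± 8.74 to 306 ± 29.0 (SD, n = 3 each; limma adjusted p = 0.000364), while the other 4 did not pass. A further acetylesterase, AT1G09550, was dim and not tested, and is named after its values were seen. It read 32.0 ± 2.14 with 2,4-D alone and 6.12 ± 4.28 with brassinazole. In the fit with no filter, where 3.9% of all probe sets passed, it was lower (limma adjusted p = 0.0174). Of 15 loci for galacturonosyltransferases, which build homogalacturonan, 1 was tested and did not pass (log2 change -0.31), and neither of the 2 polygalacturonase-inhibiting proteins was named by a single-gene probe set. The share called was 14.3% of the tested pectin methylesterases, 57.1% of the tested pectate lyase-like genes and 20% of the 5 tested pectin acetylesterases. It was 34.8% of the tested polygalacturonase family and 7.52% of all probe sets tested. For falls alone the share of all probe sets was 4.08%, and for rises alone 3.44%. The lists were chosen with earlier results of these data known, and differences between these families were not tested.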

How the data were processed

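RNA of whole seedlings was measured on 6 Affymetrix arrays, 3 per group by the sample titles. The authors deposited linear signal intensities. The submitters' processing notes name MAS5 as the tool; for its version, nothing is given in the sources used here, and detection calls were not used. The mean signal without the highest and lowest 2% of probe sets was 500 on every array, so the authors' scaling fixes each array's level and a shift of most transcripts would not be seen. The number of arrays limits the precision.

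Names came from the platform annotation (13513 single-gene probe sets, 503 with several genes, 8794 without an entry), of which 13484 matched the RefSeq TAIR10.1 gene table. After removal of 64 control probe sets, log2(signal + 16) was fitted with limma 3.58.1 in R 4.3.3 (lmFit, eBayes with trend, two-sided, no block) on the 17059 probe sets at or above the 25th percentile of mean signal, with Benjamini-Hochberg adjustment over all of them. Changes are brassinazole plus 2,4-D minus 2,4-D, and the pseudocount understates changes of dim genes. The fit was also run on simulated data, with added changes larger than those of most called members. That run does not bear on changes as small as theirs.

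The members, the other pectin lists and the tests were chosen with earlier results of these data known. All members past the threshold were described, then the 4 with the smallest p in each direction, the 4 with the highest signal and those of known role; from each other list, up to 3 called genes. Same-numbered replicates were checked for pairing. Their deviations from the group means correlated at 0.037 to 0.063, against -0.042 to -0.0099 for differently numbered arrays. Deviations within a group cancel out, so the ranges for same and different numbers are not independent of each other. These correlations are small and do not settle pairing, and the numbers were not taken as pairs in the main fit. Sequences were not analysed here.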

Additional observations from a re-analysis of the deposited data

How the results depend on the processing

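The direction of the family's median log2 change held in all 15 alternatives: other pseudocounts (1 and 64), filters and scalings, no variance trend, a replicate block, single arrays left out, and both arrays with deviating controls left out. Its size moved from -0.17 to -0.052 with no filter, where the 18 dim members enter, and to -0.57 with a filter at the 50th percentile, where 8 members remain. Between 5 and 7 members were called lower in every alternative, but the number tested and the share of all probe sets called changed too. With no filter 5 of 41 members were called lower, against 485 of 22746 probe sets (3.9% called in either direction). With the filter at the 50th percentile it was 5 of 8, against 585 of 11373 (9.35% in either direction). In the other alternatives 23 members were tested, and 4.43% to 7.61% of all probe sets were called in either direction. The count called higher, 1, became 0 with limma under no filter, the filter at the 50th percentile (where AT1G65570 is not tested), the replicate block, any single array left out (0 to 0) and both arrays left out. At an unadjusted p under 0.05, 1 member was higher in each of these, except 0 with the filter at the 50th percentile. Such a p was common, at 21.9% of all probe sets tested in the main fit, either direction. That share was not computed for the alternatives, and this count is not read as a result. The replicate block also ended the call of AT3G59850 (adjusted p = 0.0577), leaving 6 lower. With no filter AT1G60590, AT3G59850 and AT1G65570 did not pass (adjusted p = 0.126, 0.0779 and 0.0704), and without the variance trend AT1G60590 did not (0.0899).

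Changes near 0 turned sign: AT1G80170 ranged over -0.034 to 0.24 with single arrays left out, AT3G15720 over -0.041 to 0.22 and AT3G61490 over -0.027 to 0.093; without both arrays AT1G80170 was at -0.033 and AT3G15720 at -0.057. Signals near the filter and 3 arrays per group limit what can be seen of the dim members. The causes of lost calls were not tested.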
